A study of Caenorhabditis elegans with 4 samples.

Results

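The right arm of chromosome III of Caenorhabditis elegans carried 1254 of the 14662 LIN-61 peaks in the list that the authors deposited for the whole series, or 8.55% of them. The members were chosen by position alone. They are the peaks whose midpoint lies between 9189134 and 13783700 on III, which is the last of 3 equal sections of the chromosome and 4.58% of the sequence spanned by the lists (WS220 coordinates, counted from 1). The same window held 899 of the 9958 peaks of replicate 1 and 1155 of the 13486 peaks of replicate 2. Both libraries are chromatin immunoprecipitations (ChIP-seq) from wild-type N2 larvae at the third larval stage (L3), of both sexes, kept at 20 °C. The affinity-purified rabbit antibody was raised against residues 159 to 491 of LIN-61. The 2 input DNA libraries of the same stage and strain were not analysed here, so no peak could be set against its input. The labels number the replicates without saying whether they are separate cultures, and the spread between them may be technical.

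LIN-61 is a chromatin protein built of MBT repeats, a fold that reads methylated lysines on histone tails. It belongs to the synMuv B group of worm genes, which keep vulval and germline genes off in tissues where they do not belong, and it is known to bind histone H3 carrying the lysine methylation of heterochromatin. Worm chromosomes have no single centromere. Their arms are rich in repeats and heterochromatin and recombine often in meiosis, while their central parts hold most of the broadly expressed genes. The genes and repeats under the peaks were not analysed here, because no genome or annotation of the build of the lists was at hand.

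LIN-61 peaks were several times denser on the right arm of III than in the centre of the chromosome and sparser than on the left arm. Density on the right arm was 196 peaks per Mb by the replicate 1 list and 251 by that of replicate 2, against 55.1 and 77.0 in the centre. The fold of right arm over centre was 3.41 ± 0.21 (SD, n = 2). The left arm had 273 and 293 peaks per Mb, and the fold of right arm over left arm was 0.789 ± 0.100. Both replicates gave the same direction in each comparison. The two-sided exact permutation test, which flips the sign of each replicate's log2 fold, cannot go below p = 0.5 with 2 replicates and gave p = 0.5 for both.

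By bases rather than peak number the distance from the left arm was greater. Peaks covered 7.97% of the right arm in replicate 1 and 13.1% in replicate 2, against 15.5% and 19.6% of the left arm, a fold of 0.592 ± 0.108 (SD, n = 2). In the centre they covered 1.85% and 3.51%. Among the 18 chromosome sections the right arm of III ranked 4 by peak density in replicate 1, after the left arms of III, IV and I, and 3 in replicate 2 and in the whole-series list. These ranks were not tested. In replicate 2 its 251 peaks per Mb stood close to the 243 of the section next below it, the left arm of IV.

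The peaks were not spread evenly over the arm, and the rise towards the chromosome end began well inside the window. In bins of 500 kb, the first of them cut short by the boundary, the inner end of the arm was close to the centre in density. From 9189134 to 9500000 the lists of replicates 1 and 2 gave 22.5 and 64.3 peaks per Mb. From 9500001 to 10000000 there were 56.0 and 68.0, and from 10000001 to 10500000 there were 68.0 and 104.0. The centre section as a whole had a mean of 66.1 ± 15.5 peaks per Mb (SD, n = 2), which lies within the span of these bins.

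Density then climbed. The next bin, to 11000000, reached 136.0 per Mb in replicate 1 and 214 in replicate 2, and the bin to 11500000 had 258 and 348. The 4 bins from 11000001 to 13000000 held the most peaks, with means between 303 and 380.0 per Mb. The highest of them, from 12500001 to 13000000, had 374 in replicate 1 and 386 in replicate 2. The bin after it, to 13500000, dropped to 174 and 240.0. The last 284 kb had 201 and 271.

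**Figure D1:**
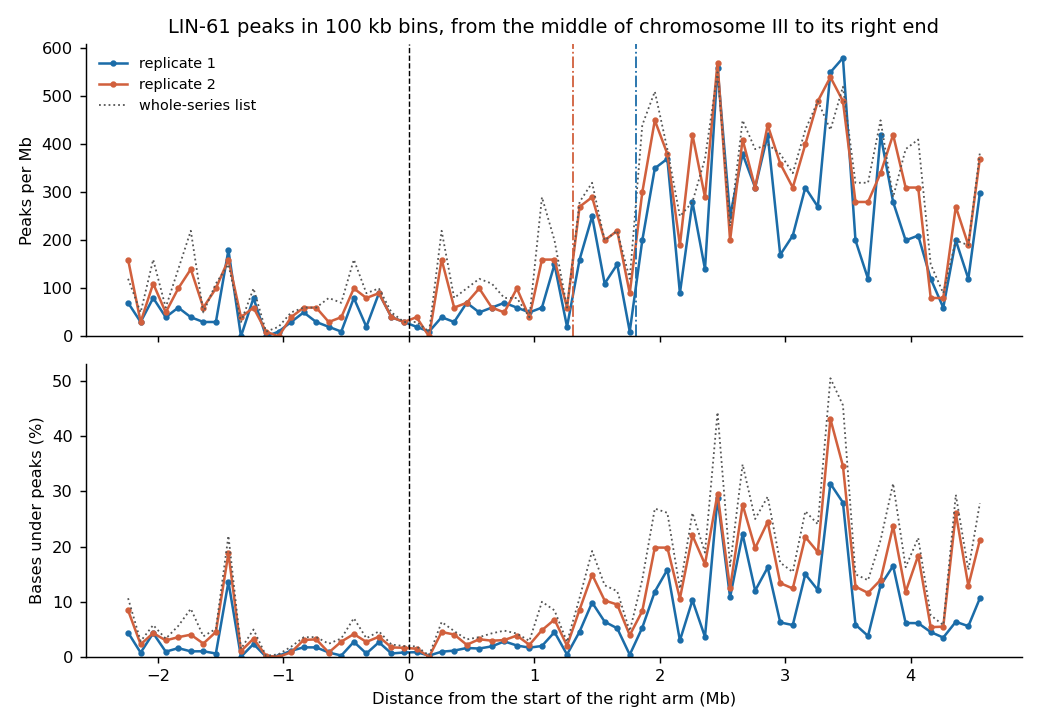
LIN-61 peaks in 100 kb bins from the middle of chromosome III to its right end, as peaks per Mb (upper panel) and as the percentage of bases under peaks (lower panel), against the distance in Mb from the start of the right arm. Solid lines with points are replicates 1 and 2, the dotted line is the authors' whole-series list, the dashed line marks the start of the arm and the dash-dotted lines the fitted step, 1311 kb into the arm in replicate 2 and 1811 kb in replicate 1.

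The edge towards the centre was placed by fitting a single step to the counts in 100 kb bins from the middle of the chromosome to its end. In replicate 1 the step fell at 11000001, or 1811 kb inside the window, with 274 peaks per Mb past it and 59.0 before it. In replicate 2 it fell at 10500001, 1311 kb inside, with 320 past it and 73.6 before it. The whole-series list also gave 10500001, with 339 past it and 94.2 before it. The fit took up 54.3% of the variance between bins in replicate 1 and 64.6% in replicate 2, and the rest lay between bins on the same side of the step. On the right arm the step lay 2.78 Mb from the chromosome end in replicate 1 and 3.28 Mb in replicate 2. The same fit from the middle of III to its left end put the step 3.48 Mb from that end in all 3 lists. The dense part of the right arm was the shorter in both replicates, and this was not tested.

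By counts in 100 kb bins the replicates differed over the 500 kb between the 2 steps. There replicate 1 had 68 peaks and replicate 2 had 107. Within it, the bin from 10900001 to 11000000 held 1 peak in replicate 1 and 9 in replicate 2. With 200 kb bins both replicates put the step at 11.0 Mb, and by covered bases both put it at 11.1 Mb. Each of these steps leaves the section boundary at 9189134 in sparse territory. The last whole-series peak outside the window, from 9161007 to 9161333, had a score of 4.82, and the first inside, from 9228251 to 9228411, had 6.41. Their midpoints lay 27964 bp outside and 39197 bp inside the boundary.

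Splitting the window at 10500001, a position chosen after the counts were seen, separated 2 unlike parts. That position is the step of replicate 2 and of the whole-series list by counts in 100 kb bins. The part from the step to the chromosome end, 3.28 Mb, had 286 ± 47.2 peaks per Mb with a mean of 13.8% of bases covered. The part from the boundary to the step, 1.31 Mb, had 66.8 ± 20.0 peaks per Mb with 2.38% covered (SD, n = 2). The median width was 306 ± 26.5 bp in the part past the step and 248 ± 35.0 bp in the part before it. In the centre of III the median width was 247 ± 31.5 bp. In the whole-series list, 56 of the 57 members of 2000 bp or more lay past the step, as did 1112 of all 1254 members. Because the split was placed on these counts, the differences in density are a description and were not tested.

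Over the whole arm the 100 kb bins differed widely. In the 45 full bins, replicate 1 had between 1 and 58 peaks with a median of 16.0, and replicate 2 between 0 and 57 with a median of 27.0. The densest bin by the mean of the replicates ran from 11600001 to 11700000, where replicate 1 had 56 peaks and replicate 2 had 57. The bins from 12500001 to 12600000, with 55 and 54 peaks, and from 12600001 to 12700000, with 58 and 49, followed. These 3 bins were picked by the mean of the same 2 libraries, and on average had 29.2%, 37.3% and 31.3% of their bases under peaks. In replicate 2 the bin from 12400001 to 12500000 also had 49 peaks, against 27 in replicate 1. In the whole-series list the 3 bins had 55, 43 and 52 peaks.

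The sparsest bins all lay before the step of replicate 2. From 9300001 to 9400000 replicate 1 had 1 peak and replicate 2 had none. From 9200001 to 9300000 they had 2 and 4, and from 10400001 to 10500000 they had 2 and 6. The longest stretch with no peak in any of the 3 lists ran for 101 kb from 9949649 to 10050339. The next ran for 74.0 kb from 9332992 to 9406961, again before the step. The next after that, of 55.1 kb from 13391601 to 13446724, lay in the outer part of the arm and falls in the dip seen in the bins from 13300001 to 13500000.

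The replicates traced similar profiles at this scale. Across the 45 bins Pearson's r between the peak counts was 0.901 and Spearman's rho 0.921. The bins lie on 1 chromosome and share its rise towards the end, so these values are a description with no p. Replicate 2 had more peaks than replicate 1 in 34 bins, fewer in 8 and the same number in 3. It covered more bases in 44 of the 45 bins. Over the whole lists replicate 2 also had more peaks, 13486 against 9958, so its excess is not particular to the arm. Depth is unknown for both libraries, and its part in this was not tested.

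Most peaks were narrow. Median widths on the right arm were 283 bp (replicate 1) and 317 bp (replicate 2), with a mean of 300.0 ± 24.0 bp (SD, n = 2). The left arm had medians of 362.5 and 380.5 bp, and the centre had 225 and 269.5 bp. The right arm exceeded the centre by 52.8 ± 7.4 bp and fell short of the left arm, with a difference of -71.5 ± 11.3 bp. Each difference had 1 sign in both replicates and p = 0.5 in the exact permutation test, the smallest it allows. The narrowest peak of the arm was 146 bp in each of the 3 lists. Every other section had the same narrowest width, so it is no trait of the arm.

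**Figure D2:**
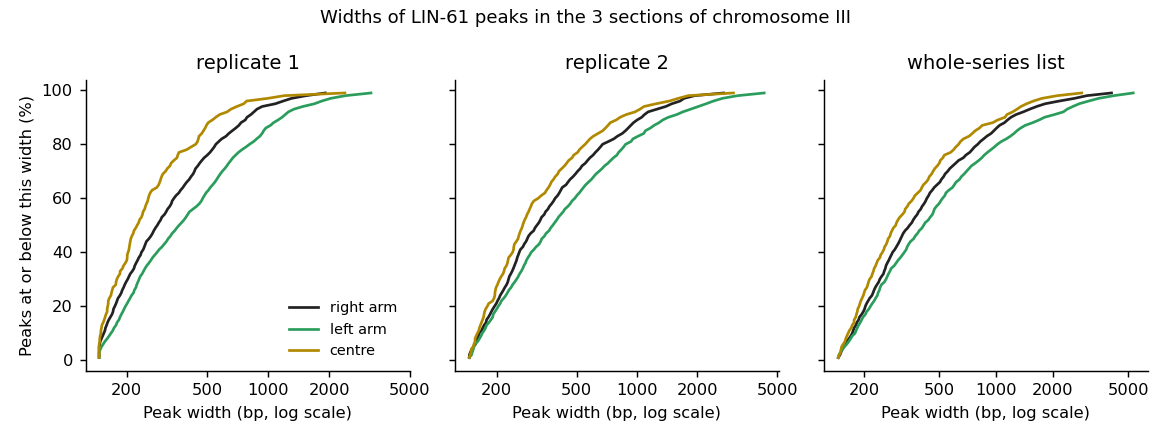
Cumulative widths of LIN-61 peaks on chromosome III, with the peak width in bp on a log axis and the percentage of peaks at or below it, drawn from the lowest to the highest percentile but not beyond. In each list the curve of the right arm lies between the left arm, which has the wider peaks, and the centre around the median.

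The lists differed in how many broad peaks they held. Peaks of 2000 bp or more numbered 6 of 899 in replicate 1, 23 of 1155 in replicate 2 and 57 of 1254 in the whole-series list. They made up 4.48%, 14.7% and 27.0% of the bases in peaks on the arm in those lists. On the left arm the replicates had 42 and 83 such peaks, so their share of peaks was lower on the right arm, at 0.667% and 1.99% against 3.35% and 6.18%. The mean difference was -3.44 ± 1.06 percentage points (SD, n = 2, exact permutation p = 0.5). Against the centre, where the share was 1.58% and 1.69%, the replicates differed in sign, at -0.914 and 0.296 percentage points (exact permutation p = 1.0).

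Most broad members were divided into several peaks in the replicate lists. Of the 57 broad members, 49 held 2 or more peaks of replicate 1 and 41 held 2 or more peaks of replicate 2. The most that a member held was 12 peaks of replicate 1, in the members from 12544497 to 12560115 and from 11932881 to 11940370. When peaks less than 500 bp apart within a list were joined, the number of regions of 2000 bp or more became 46 in replicate 1, 73 in replicate 2 and 104 in the whole-series list.

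The widest member ran for 15619 bp from 12544497 to 12560115 and scored 78.97 in the whole-series list. Replicate 2 had a single peak of 15378 bp over nearly all of it, from 12544492 to 12559869, which was the widest peak of that whole list. Replicate 1 had 12 peaks there, of 232 to 2905 bp, which together covered 87.5% of the member. Both libraries therefore had peaks over most of this region, and they differed in where the peaks were broken.

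The next widest member was of another kind. It ran for 15355 bp from 13584135 to 13599489, near the chromosome end, with a score of 26.1. Replicate 2 covered 97.4% of it with 4 peaks, the widest of them 8041 bp. Replicate 1 had 2 peaks of 205 and 223 bp, which covered 2.79%. The member counts as found in both replicates under a rule of 1 shared base, and almost all of its covered length was in replicate 2. Of the 57 broad members, 1 other was covered by less than 10% in replicate 1. That was the 2525 bp member from 13084031 to 13086555, at 0% in replicate 1 and 73.2% in replicate 2. Replicate 2 covered none of the 57 by less than 10%.

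**Figure D3:**
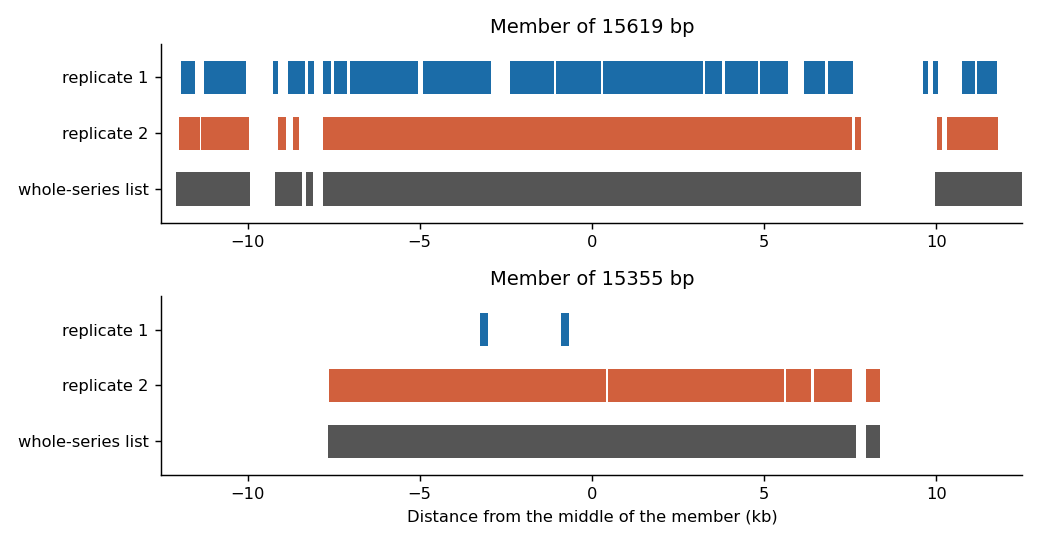
Peaks of replicate 1, replicate 2 and the whole-series list, as bars from start to end, around the 2 widest members of the right arm, against the distance in kb from the middle of the member. Over the 15619 bp member replicate 1 has 12 peaks and replicate 2 a nearly unbroken one, while over the 15355 bp member replicate 1 has only 2 short peaks.

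The 3 next widest members spanned 7490 bp from 11932881 to 11940370, 5850 bp from 12562258 to 12568107, and 5298 bp from 12612515 to 12617812. Replicate 1 covered 68.2%, 56.0% and 88.9% of them, and replicate 2 covered 95.4%, 92.4% and 99.5%. Both libraries covered at least 50% of each of the 3.

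Peaks on the arm lay close together. The median gap between neighbours was 797.5 bp and 835.5 bp in replicates 1 and 2, against 512 and 629 bp on the left arm and 2409 and 2231 bp in the centre. Another peak of the same list lay within 5 kb of 92.4% of the peaks in replicate 1 and of 94.8% in replicate 2. In the centre this held for 79.1% and 76.0%. A gap under 500 bp followed 40.8% and 38.9% of the peaks of the arm. Whether such neighbours belong to 1 enriched region was not tested.

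Runs of peaks with every gap under 5 kb gathered many of the arm's peaks into a small part of its length. A rule that joins close peaks favours this by its construction, and the other sections were not measured in this way. Runs of 20 kb or more numbered 13 in replicate 1 and 23 in replicate 2. They held 362 of the 899 peaks (40.3%) in 10.3% of the window in replicate 1, and 551 of the 1155 peaks (47.7%) in 18.9% of it in replicate 2. The whole-series list had 25, with 605 of the 1254 members (48.2%) in 22.3%. At the other extreme, 68 runs in replicate 1, 60 in replicate 2 and 56 in the whole-series list were single peaks with no neighbour within that distance.

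The longest run of the whole-series list spanned 143 kb from 12531223 to 12674665 and held 74 members. Replicate 1 had 94 peaks there, over 37.0% of the bases, and replicate 2 had 79, over 44.6%. In replicate 1 the run was shorter, 94.5 kb from 12533928 to 12628381, and in replicate 2 it was 134 kb from 12538373 to 12672725. The ground that the runs of both replicates share here held 71 and 53 peaks over 50.3% and 59.2% of its bases. Past position 12628381, where replicate 1's run ends, both replicates still had peaks, but in replicate 1 a gap of 5 kb or more broke the run.

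**Figure D4:**
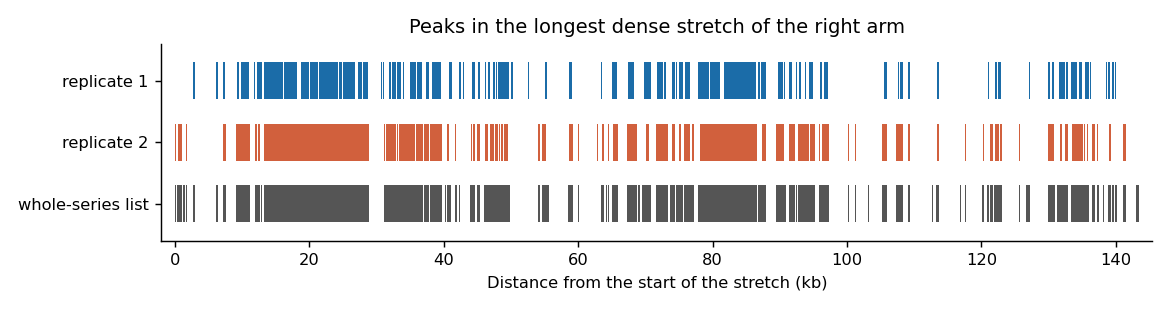
Peaks of replicate 1, replicate 2 and the whole-series list, as bars from start to end, along the longest dense stretch of the right arm, against the distance in kb from its start. The run of replicate 1 ends 97.2 kb into the stretch, at a gap of 5 kb or more. Past that point both replicates still have peaks, and those of replicate 2 and the whole-series list stay under 5 kb apart.

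Other long runs of the whole-series list were supported unequally. The second, of 78.8 kb from 12444262 to 12523101, had 45 members, where replicate 1 had 20 peaks and replicate 2 had 44. A run of 59.2 kb from 11570142 to 11629321 was the next by length and had 40 members, with 18 and 37 peaks. In these 2 runs replicate 1 covered 8.87% and 8.89% of the bases, and replicate 2 covered 22.9% and 33.9%. The run of 49.1 kb from 11159987 to 11209108 was more even, with 27 peaks of replicate 1 and 34 of replicate 2. The run of 46.8 kb from 13060525 to 13107315 had 29 and 39, over 37.3% and 51.3% of its bases.

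The next 4 stretches shared by runs of both replicates all lay before the longest. They spanned 46.0 kb from 11160425 to 11206420, 39.9 kb from 11654892 to 11694785, 38.4 kb from 11821533 to 11859968 and 31.7 kb from 12033218 to 12064901. The one at 11654892 was the most filled of the 5 in replicate 1, with 44 peaks over 63.8% of its bases, and held 34 peaks over 49.2% in replicate 2. In the other 4 of the 5 shared stretches replicate 2 covered the larger part.

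Fewer than 50% of the members were found in both libraries. Of the 1254 members, 471 (37.6%, exact 95% interval 34.9 to 40.3) overlapped a peak of each replicate by at least 1 bp. Over all peaks of the whole-series list that share was 37.2%, so the arm's share lay at the level of the list. A further 481 members (38.4%) were found in replicate 2 alone, 130 (10.4%) in replicate 1 alone and 172 (13.7%) in neither. Over all peaks of the list these shares were close to that, at 39.1%, 9.46% and 14.3%. The share found in both was 53.1% on the left arm (50.5 to 55.8) and 28.2% in the centre (24.0 to 32.7). These intervals cover counting error only and neighbouring peaks are not independent. The whole-series list may rest on the same reads as the replicates, so support is no independent repeat of it.

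Seen from the replicates, 684 of the 899 replicate 1 peaks on the arm (76.1%) overlapped a replicate 2 peak, and 579 of the 1155 replicate 2 peaks (50.1%) overlapped a replicate 1 peak. On the left arm these shares were 82.9% for replicate 1 and 66.7% for replicate 2, and in the centre 64.0% and 37.9%. The right arm thus lay between the other sections of III. Such shares were not computed over the whole lists, so whether the arm departs from their level was not tested. By bases, 266 kb was common to both, which is 72.7% of the ground of replicate 1 and 44.1% of that of replicate 2. On the left arm the common part was 83.1% and 65.4%, and in the centre 61.3% and 32.4%.

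Support went with score and width. The score may rest on the same reads as the replicate peaks, so its link with support may be built in. The shares by score and width below were not set against the rest of the list. The members were put in 4 groups of near-equal size by their whole-series score. In the highest group, with scores from 16.3 to 112.8, 272 of 315 members (86.3%, 82.1 to 89.9) were found in both replicates and the other 43 in replicate 2 alone. In the lowest, with scores up to 4.78, 6 of 302 (1.99%, 0.733 to 4.27) were found in both and 132 (43.7%) in neither. The groups between them had 43 of 325 (13.2%) and 150 of 312 (48.1%) in both.

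Narrow members had the least support. Under 200 bp, 3 of 232 members (1.29%) had a peak in both replicates and 96 (41.4%) in neither. From 500 to under 2000 bp, 278 of 374 (74.3%) were found in both, and at 2000 bp or more 56 of 57 (98.2%). A wide peak meets a rule of 1 shared base more easily than a narrow one, and width and score ran together, with a Spearman's rho of 0.718 over the 1254 members. The members found in both had a median width of 744 bp, and those found in neither 188 bp.

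**Figure D5:**
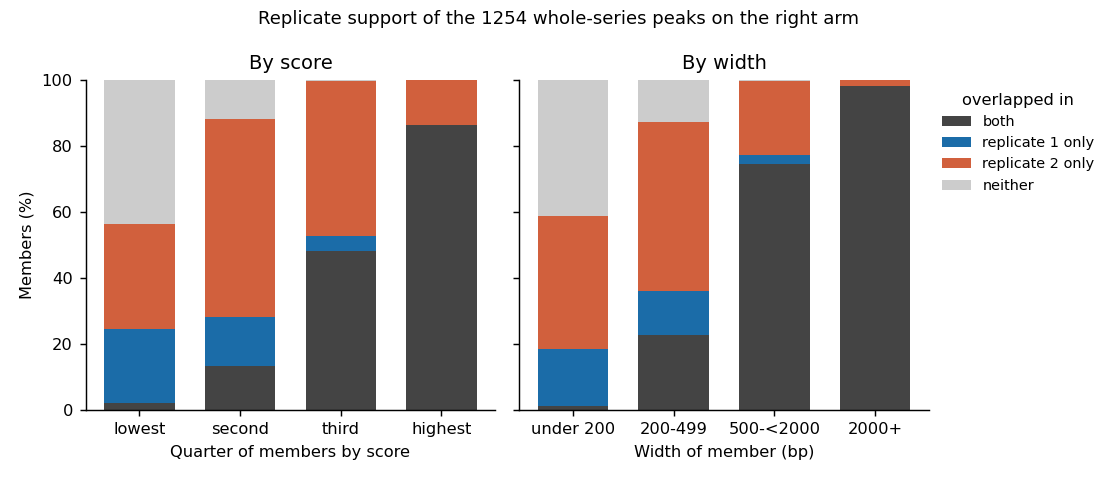
Percentage of the 1254 members found in both replicates, in replicate 1 only, in replicate 2 only or in neither, by an overlap of at least 1 bp, for 4 groups by score (left) and 4 classes of width (right). The share found in both reaches 86.3% in the highest score group and 98.2% among members of 2000 bp or more, and members found in replicate 1 alone are absent from both of those groups.

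Along the arm the share found in both was lowest at the inner end. It was 3 of 26 members before 9500001 (11.5%, 2.45 to 30.2) and 14 of 49 in the next bin (28.6%, 16.6 to 43.3). It was highest from 12500001 to 13000000, at 90 of 204 (44.1%, 37.2 to 51.2). Past the step 435 members were found in both (39.1%), and before it 36 (25.4%).

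By their medians the scores of the arm's peaks were ordinary for their lists. The median peak stood at percentile 46.1 in the replicate 1 list and at 51.3 in that of replicate 2. On the left arm these percentiles were 68.3 and 64.7, and in the centre 40.2 and 42.2. The deposited score is a value per peak whose meaning the sources do not give, and it served only to rank peaks within a list. The highest score on the arm was 112.8 in the whole-series list, which ranked 229 among the 14662 peaks. It was 102.9 in replicate 1 and 101.2 in replicate 2.

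The 10 highest-scoring members found in both replicates were spread over 4.11 Mb, and 9 of them lay past the step. Of all members found in both, 435 of 471 lay there, so the 10 were near that share. The highest of the 10 ran from 11159987 to 11161575 and opens the 49.1 kb run. Its best overlapping peak stood at percentile 87.4 in replicate 1 and 97.8 in replicate 2. The second ran from 11980299 to 11981916 with a score of 107.0, and its best peaks stood at percentiles 90.3 and 98.6. The member from 12341154 to 12344537, with a score of 102.2, was the strongest in replicate 1, where its best peak scored 102.9 (percentile 99.2). It stood at percentile 95.8 in replicate 2.

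The member from 13643513 to 13643814 was 302 bp wide with a score of 101.0, and it lay 140.0 kb from the chromosome end. The member from 9533499 to 9535122, with a score of 95.5, was the one before the step, and no other whole-series peak lay within 5 kb of it. Replicate 1 covered 32.4% of that member and replicate 2 all of it (100%). The member from 11463476 to 11464469, with a score of 89.9, was weak in replicate 1, where its peak scored 4.97 at percentile 33.5, and strong in replicate 2, at percentile 98.3.

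The remaining 4 ran from 11932881 to 11940370 (score 88.8), from 12454455 to 12456469 and from 12696341 to 12698958 (87.1 each), and from 12609107 to 12612439 (81.7). The last lies within the 143 kb run. In 7 of the 10 members the best peak had the higher percentile in replicate 2, and in 3 it did in replicate 1. With at least 50% of both peaks required to overlap, 9 of the 10 kept support in replicate 2 and 4 in replicate 1. These 4 had it in both. The rule compares single peaks, so a member divided into several can fail it. In replicate 1 the members starting at 12341154, 11932881, 12696341 and 12609107 failed it. They held 4, 12, 4 and 3 peaks over 78.3%, 68.2%, 78.1% and 90.6% of their bases. The members starting at 9533499 and 11463476 failed with 1 peak each, over 32.4% and 17.6%. In replicate 2 the member starting at 12609107 failed with 3 peaks over 88.0%.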

How the data were processed

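LIN-61 ChIP-seq peaks of 2 libraries of L3 larvae were analysed. Per the submitters' processing notes reads were aligned with BWA to ce10. Peaks were called with MACS on WormBase WS220 (the assembly of ce10), per the file headers. The sources used here give no versions, threshold or filters, and do not say whether the input was used in calling or how the whole-series list was made. The deposited peak lists used here give positions and 1 score per peak. Read counts were not used here, so the depth behind the peaks is unknown.

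The extent of III was taken as its last peak end in any list and divided into 3 equal sections. Peaks belong to the section of their midpoint. Densities, covered bases, widths, gaps, runs and overlaps were computed in Python 3.11.15 with numpy 2.4.6, pandas 2.3.3 and scipy 1.17.1, by code tested on simulated data. The step fit was tested on simulated lists with a single sharp step at a bin limit. That test does not show how well a gradual rise is placed. Sections were compared over the 2 replicates by exact permutation of signs (two-sided). Intervals are exact (Clopper-Pearson) 95% binomial intervals and cover counting error only. Named were the 10 highest-scoring members found in both replicates, the 5 widest members, the 5 longest runs of the whole-series list and of the ground shared by both replicates, the 3 densest and 3 sparsest full bins, the 3 longest empty stretches and the members next to the boundary. The 2525 bp member was named after its values were seen. The window, the measures and the run rule were chosen with earlier results of these data known. The 20 kb limit for runs, the width classes, the score groups and the split at the step were chosen after the files were seen. Alternatives tried were the 50% with the higher scores, merging of peaks less than 500 bp apart, arms as the outer 25%, covered bases, other bin sizes, gap limits, distances and overlap rules, each replicate left out and the whole-series list.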

Additional observations from a re-analysis of the deposited data

How the results depend on the processing

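The 4 contrasts of the right arm with the centre and the left arm kept their direction under each alternative run. The density fold over the centre ran from 2.88 in the whole-series list to 4.48 in the higher-scoring 50%, and over the left arm from 0.592 by covered bases to 0.905 in the whole-series list. With 2 replicates the exact permutation p was 0.5 throughout and says nothing about stability. The step stayed between 10.5 and 11.1 Mb under each alternative. With 200 kb bins both replicates gave 11.0 Mb, and by covered bases both gave 11.1 Mb. With 50 kb bins replicates 1 and 2 gave 11.0 and 10.5 Mb, and in the higher-scoring 50% they gave 11.1 and 10.5 Mb. The share of members found in both replicates (37.6%) became 17.0% under a reciprocal overlap of 50%, 67.2% in the higher-scoring 50%, where the cause was not tested, and 26.1% when the replicate peak had to hold the member's midpoint. With support asked of 1 replicate it ran from 47.9% to 75.9%. The longest shared stretch (90.0 kb) became 33.8 kb with gaps under 2 kb, 187.0 kb with gaps under 10 kb and 31.7 kb in the higher-scoring 50%, always around the same ground, and with 1 replicate left out it ran from 94.5 to 134 kb. The mean share of peaks with another within 5 kb (93.6%) became 73.5% at 1 kb, 99.2% at 20 kb, 86.8% after merging, 83.3% in the higher-scoring 50% and 95.5% in the whole-series list. Stricter rules and shorter distances lower such shares by their construction. No paired analysis was possible because ChIP and input share replicate numbers but only ChIP peak lists were analysed here. Depth is unknown, so the excess of peaks in replicate 2 cannot be read as more binding.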

Other observations

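The end of III was taken as the last peak end in any list. The last 100 kb before it held 26 peaks in replicate 1 and 36 in replicate 2, or 260.0 and 360.0 per Mb, and the last 500 kb held 81 and 98, or 162 and 196 per Mb. The final member, from 13783437 to 13783700, sets that end and had a score of 8.70. Replicate 1 had a peak of 229 bp there with a score of 31.3 in its own list. The last peak of replicate 2 in the window ended at 13781504.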
